A study of Mus musculus with 4 samples.

Results

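Endothelial adhesion and activation genes are described here by 9 members, *Selp*, *Sele*, *Icam1*, *Vcam1*, *Madcam1*, *Ackr1*, *Vwf*, *Lrg1* and *Plvap*, of the 32285 genes counted in single cells of the mouse fracture callus. The genes were chosen by name, with earlier results of these data known, so counts of members past a threshold are not those of an independent list. They were read in endothelial cells, defined as kept cells with at least 2 UMIs of *Pecam1*, at least 1 UMI of *Cdh5* and 0 UMIs of *Ptprc*. A UMI is 1 counted mRNA molecule. This gate held 3247 of 25479 kept cells, namely 633 in control_4d, 462 in RA_4d, 910 in control_7d and 1242 in RA_7d.

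The study asked how inflammatory arthritis alters fracture repair, and profiled callus cells of male C57BL/6J wild-type mice aged 3 months whose right tibia had been fractured. RA mice received K/BxN serum, which transfers an antibody-driven arthritis, and control mice received vehicle. Callus was collected at 4 or 7 days post-fracture (dpf), scraped from along the periosteal surface and digested with collagenase, and 10000 cells were loaded per library. The groups were control_4d, RA_4d, control_7d and RA_7d, each with 1 library made from a pool of mice, so that a difference between conditions has no replicate check and cannot be told apart from a difference between pools or libraries. RA here means a serum-transferred arthritis of short duration in animals that all carried a fracture, and no unfractured bone was part of the 4 libraries.

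Blood leukocytes leave the circulation mainly through post-capillary venules, in steps of rolling, activation, firm adhesion and passage through the wall. Selectins on the endothelium catch sialylated and fucosylated ligands and let leukocytes roll, chemokines displayed on the surface activate leukocyte integrins, and immunoglobulin-family receptors then hold those integrins. P-selectin is stored with von Willebrand factor in Weibel-Palade bodies and can reach the surface within minutes. E-selectin, ICAM-1 and VCAM-1 are classically raised by cytokine signalling through NF-kB. Protein storage, release and shedding are not seen in mRNA counts.

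The members lie on 7 chromosomes, and all are protein-coding genes whose identifiers in the count table match GENCODE vM21 on GRCm38. The endothelial selectins are neighbours on the plus strand of chromosome 1, *Sele* at 164048234 to 164057677 and *Selp* at 164115264 to 164150026, with starts 67030 bases apart. On the minus strand of the same chromosome, *Ackr1* (173331886 to 173333750) shares 493 bases, 361 of them exonic in both genes, with *Cadm3*, so counts of this pair are uncertain where reads could belong to either. *Icam1* lies on chromosome 9 (21015985 to 21028817, plus strand) and *Vcam1* on chromosome 3 (116109949 to 116129688, minus strand). *Madcam1* lies on chromosome 10 (79664559 to 79668537, plus strand), *Vwf* on chromosome 6 (125546774 to 125686679, plus strand), *Lrg1* on chromosome 17 (56119678 to 56122001, minus strand) and *Plvap* on chromosome 8 (71497765 to 71511752, minus strand). *Selp*, *Icam1*, *Vcam1* and *Plvap* overlap genes on the opposite strand.

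The RefSeq promoter table held 6 members, and the promoters of *Vcam1*, *Vwf* and *Plvap*, which have no entry, were not read. Promoter sequence is shown for the 3 members with an entry whose textbook regulation by inflammatory signals bears most on the comparisons. Each is given as the 250 bases before the RefSeq start site on GRCm38.p6. Capitals mark matches, on either strand, to a kappaB motif (GGANNTTCC, the site of NF-kB) or an AP-1 motif (TGANTCA, the site of Fos and Jun dimers), which do not overlap each other. These are *Selp* (chr1:164115014-164115263, plus strand), *Sele* (chr1:164047984-164048233, plus strand) and *Icam1* (chr9:21015690-21015939, plus strand).
Selp: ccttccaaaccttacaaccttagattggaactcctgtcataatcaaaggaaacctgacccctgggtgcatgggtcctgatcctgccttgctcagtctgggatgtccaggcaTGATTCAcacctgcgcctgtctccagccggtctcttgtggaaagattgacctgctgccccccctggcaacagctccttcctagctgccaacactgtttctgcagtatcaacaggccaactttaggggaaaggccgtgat
Sele: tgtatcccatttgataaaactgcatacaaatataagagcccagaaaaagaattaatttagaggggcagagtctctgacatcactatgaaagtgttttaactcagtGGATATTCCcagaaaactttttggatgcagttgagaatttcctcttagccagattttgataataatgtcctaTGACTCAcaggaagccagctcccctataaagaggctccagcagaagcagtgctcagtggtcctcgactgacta
Icam1: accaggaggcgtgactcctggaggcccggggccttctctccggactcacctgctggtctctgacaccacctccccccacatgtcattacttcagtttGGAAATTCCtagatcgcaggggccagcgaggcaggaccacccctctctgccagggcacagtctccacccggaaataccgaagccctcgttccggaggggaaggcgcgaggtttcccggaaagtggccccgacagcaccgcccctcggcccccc
The *Selp* window held 1 AP-1 match at -139 to -133 from the start site and no kappaB match. The *Sele* window held a kappaB match at -145 to -137 and an AP-1 match at -73 to -67, and the *Icam1* window held a kappaB match at -153 to -145. Among the 6 members in the promoter table, *Madcam1* also held a kappaB match, at -70 to -62 on the minus strand, while *Ackr1* and *Lrg1* held neither motif. Of 32851 RefSeq promoters of this length, 3.59% held the kappaB motif and 6.75% the AP-1 motif. A match is a description of letters, not of a bound site.

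Kept cells carried 108438906, 83405494, 141714572 and 156567619 UMIs in control_4d, RA_4d, control_7d and RA_7d, and endothelial cells had median depths of 19493, 20322.5, 13934.5 and 13920.5 UMIs. Libraries shared 10 to 31 barcodes pairwise. All 11 endothelial marker genes were detected in each library, with a summed level of 5348 to 5836 CPM (UMIs of a gene per 1e6 UMIs of the same cells). This list includes the gate genes *Pecam1* and *Cdh5*, whose detection was fixed by the gate and whose UMIs enter the sum. Platelets also store P-selectin and von Willebrand factor. The 8 platelet markers summed to 41.5, 38.5, 27.9 and 32.9 CPM, and *Treml1* was at 0 in both 4 dpf libraries. All 7 mesenchymal markers were detected, and their sum was 1173 CPM in control_4d, 665 in RA_4d, 3102 in control_7d and 4005 in RA_7d. All 7 mural markers were detected, with sums of 163, 65.2, 243 and 143 CPM. Erythroid markers, mainly haemoglobin genes, summed to 846, 6.23, 439 and 860 CPM. The 6 neutrophil markers summed to 7.59, 92.8, 21.7 and 7.81 CPM, with *Cxcr2* at 0 in RA_4d and *Mmp8* at 0 in RA_7d. The 8 macrophage markers, all detected, summed to 81.7, 59.7, 89.3 and 112 CPM. The part of these other cells' RNA in the levels below was not tested, except where mixed clusters were set aside.

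Across the gated cell types, 8 of the 9 members had their highest median level in endothelial cells, and the exception was *Vcam1*. The levels below are CPM over all UMIs of a cell type in a library, in the order control_4d, RA_4d, control_7d and RA_7d. *Selp*, the gene of P-selectin, was at 369.9, 481, 226 and 508 CPM in endothelial cells, against at most 0.753 CPM in mesenchymal and 0.984 CPM in mural cells. *Sele*, the gene of E-selectin, was at 110.4, 113, 71.2 and 115 CPM in endothelial cells and at 0 in muscle and Schwann cells of every library. The order of libraries was alike for both selectins in that control_7d was lowest.

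*Icam1* encodes the counter-receptor of the leukocyte beta-2 integrins. It was at 207, 236, 147 and 225 CPM in endothelial cells and next highest in T and NK cells, at 138, 116, 175 and 193 CPM, a range that overlaps the endothelial one. Dendritic cells (81.3 to 96.2 CPM) and macrophage-lineage cells (84.9 to 92.1 CPM) held lower *Icam1* levels that overlapped each other. *Vcam1* encodes the counter-receptor of the alpha-4 integrins and also marks myogenic and stromal cells. Its endothelial level was 114, 127, 110.3 and 111 CPM. Muscle cells, gated on *Pax7*, *Myod1* or *Myog*, held more, at 196, 314, 230.0 and 394 CPM, and mesenchymal cells held a similar level, at 104, 135, 118 and 140.4 CPM. *Vcam1* was thus the least endothelial member, with muscle above endothelial cells in 4 of 4 libraries.

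*Ackr1* encodes the atypical chemokine receptor of venular endothelium, which binds chemokines without signalling. Its endothelial level was 196, 192, 118 and 192 CPM. *Vwf*, which encodes the platelet-binding multimer of Weibel-Palade bodies, was at 315, 317, 167 and 403 CPM. *Plvap*, the gene of the diaphragm protein of fenestrae and caveolae, was at 916, 902, 685 and 849.7 CPM. In all 3 genes control_7d was again the lowest library. *Lrg1*, a secreted glycoprotein that modulates TGF-beta signalling in vessels, was at 639.9, 567, 399 and 582 CPM, and neutrophils, in which it is a granule protein, followed at 287, 283, 325 and 404 CPM. *Madcam1*, the mucosal addressin bound by alpha-4 beta-7 integrin, was near its limit of detection, with 5, 13, 24 and 57 UMIs in endothelial cells and levels of 0.368, 1.31, 1.66 and 2.99 CPM.

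Neutrophils were few (15, 62, 25 and 20 cells), and in the RA_7d gate their *Selp* level was 396 CPM against 5.33 to 37.2 CPM in the other libraries. *Vwf* and *Plvap*, at 299.9 and 269.6 CPM, were also highest in that neutrophil sum. The part of ambient RNA or of joined cells in it was not tested.

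**Figure D1:**
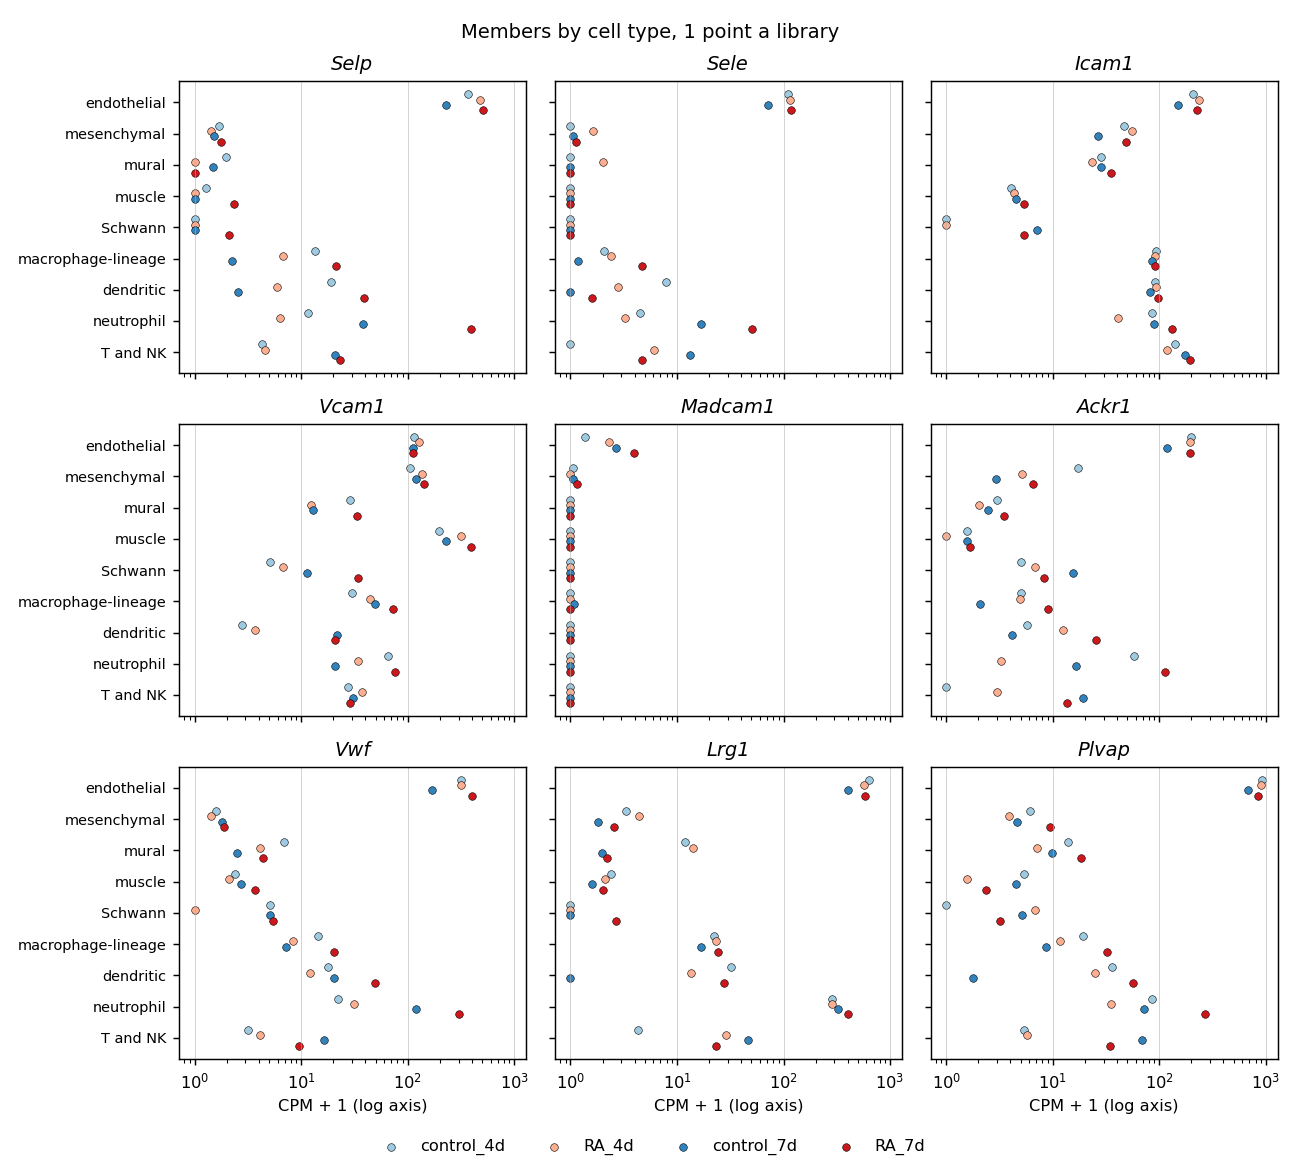
Each panel shows 1 member and each point 1 library, with the level in CPM on a log axis for each gated cell type. The endothelial median is highest for every member but *Vcam1*, for which muscle cells lie between 196 and 394 CPM and endothelial cells between 110.3 and 127 CPM.

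The difference between cell types was tested over the 4 libraries with edgeR's quasi-likelihood test, each library being a block, with Benjamini-Hochberg adjustment over all genes. Against mesenchymal cells, 7 of the 8 members tested were higher in endothelial cells, beside 32.8% of the 15577 genes tested, and 1 was lower, beside 36%. The log2 difference was 9.03 (SE 0.189) for *Selp*, 9.18 for *Sele*, 8.39 for *Vwf*, 8.05 for *Lrg1*, 7.24 for *Plvap* and 4.79 for *Ackr1*. Mesenchymal sums held 0 to 9 *Sele* UMIs per library. *Icam1* differed less, at 2.07 (SE 0.0922, adjusted p = 1.05e-05, edgeR). *Vcam1* was lower in endothelial cells, with a log2 difference of -0.30 (SE 0.103) and an adjusted p of 0.0411 by edgeR. This call rested on 3 libraries: the edgeR adjusted p was 0.0757 without RA_4d, 0.0902 without control_7d and 0.111 without RA_7d. *Madcam1* had too few UMIs to enter the edgeR fit.

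Against macrophage-lineage cells all 8 members tested were higher in endothelial cells, beside 35% of 15555 genes, and none was lower, beside 34.4%. The smallest edgeR differences were those of *Icam1*, at a log2 difference of 0.90 (adjusted p = 0.000948), and *Vcam1*, at 1.07 (adjusted p = 0.0054). *Lrg1* differed by 4.47 and *Selp* by 5.42. Against mural cells, the smooth muscle cells and pericytes around vessels, all 8 were likewise higher, beside 27.6% of 13642 genes, and none was lower, beside 25%. There *Selp* differed by 10.41, *Icam1* by 2.77 and *Vcam1* by 2.40 on the log2 scale. Mural sums held 0 to 1 *Selp* UMIs per library, so the size of the *Selp* difference is uncertain. The members were chosen by name as endothelial genes, and mesenchymal and mural cells were gated without *Pecam1*. A higher endothelial level was therefore likely beforehand. The median log2 difference of all genes tested was -0.02, 0.03 and 0.06 in the 3 comparisons, and the libraries entering them are 4 pools under 4 conditions.

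Within the endothelium the members were concentrated in venous-like cells. Endothelial cells were clustered without the members and the gate genes, which gave 9 clusters, named from marker lists. They were a venous-like cluster led by *Glycam1* (852 cells), a venous-like cluster led by *Hdc* (477), capillary-like (617), tip-like (412), lymphatic-like (268), cycling-like (260) and arterial-like (177) cells, and mixed endothelial-mesenchymal (142) and endothelial-mural (42) clusters. In the mixed clusters 52.1% and 23.8% of cells were called doublets. Levels by cluster are pooled over libraries, with the range over libraries holding at least 20 cells of the cluster, and are given without a test.

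*Selp* was at 1449 CPM (972 to 1880.4 over libraries) in the *Hdc*-led and 797 CPM (758 to 837) in the *Glycam1*-led cluster, and the ranges do not overlap. Capillary-like cells held 36.4 CPM and lymphatic-like cells 18.3 CPM of *Selp*. *Ackr1* had the same order, with 689 CPM (599 to 841) and 344 CPM (294 to 396) in the 2 venous-like clusters and at most 32.0 CPM in any other unmixed cluster. *Sele* was at 302 CPM (267 to 364) and 217 CPM (195 to 226). In lymphatic-like cells *Sele* was at 1.78 CPM and *Ackr1* at 0.763 CPM, whereas *Selp* was at 3.25 to 6.92 CPM in 3 libraries and at 89.1 CPM (67.0 to 116) in the 32 such cells of RA_4d.

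*Vwf* was at 1354 CPM (1270 to 1453) in the *Hdc*-led cluster, above the *Glycam1*-led cluster at 429 CPM (345 to 473) and arterial-like cells at 243 CPM (137 to 343). *Lrg1* was at 1466 CPM (1335 to 1720.5) and 1055 CPM (928 to 1257) in the venous-like clusters, and arterial-like cells held the least, 52.0 CPM. *Plvap* was broader. It reached 1469 CPM in the *Hdc*-led and 1184 CPM in the *Glycam1*-led cluster, but also 804 CPM in cycling-like and 779 CPM in capillary-like cells, and was lowest in arterial-like cells at 83.3 CPM. *Icam1* was at 567 CPM in the *Hdc*-led cluster, 285 CPM in the *Glycam1*-led cluster and 208 CPM (191 to 236) in arterial-like cells, and no cluster was below 79.9 CPM.

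*Vcam1* had another order. Arterial-like cells held most, 364 CPM (293 to 413), followed by the *Hdc*-led venous-like cluster at 212 CPM (136 to 294), in which the highest library reached the lowest arterial-like one. The *Glycam1*-led cluster was at 140.0 CPM (93.8 to 194). *Madcam1* was almost confined to the *Glycam1*-led venous-like cluster, which held 84 of its 99 endothelial UMIs and a level of 6.10 CPM. *Glycam1* itself, which leads that cluster, encodes a mucin-like glycoprotein known from the high endothelial venules of lymph nodes.

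**Figure D2:**
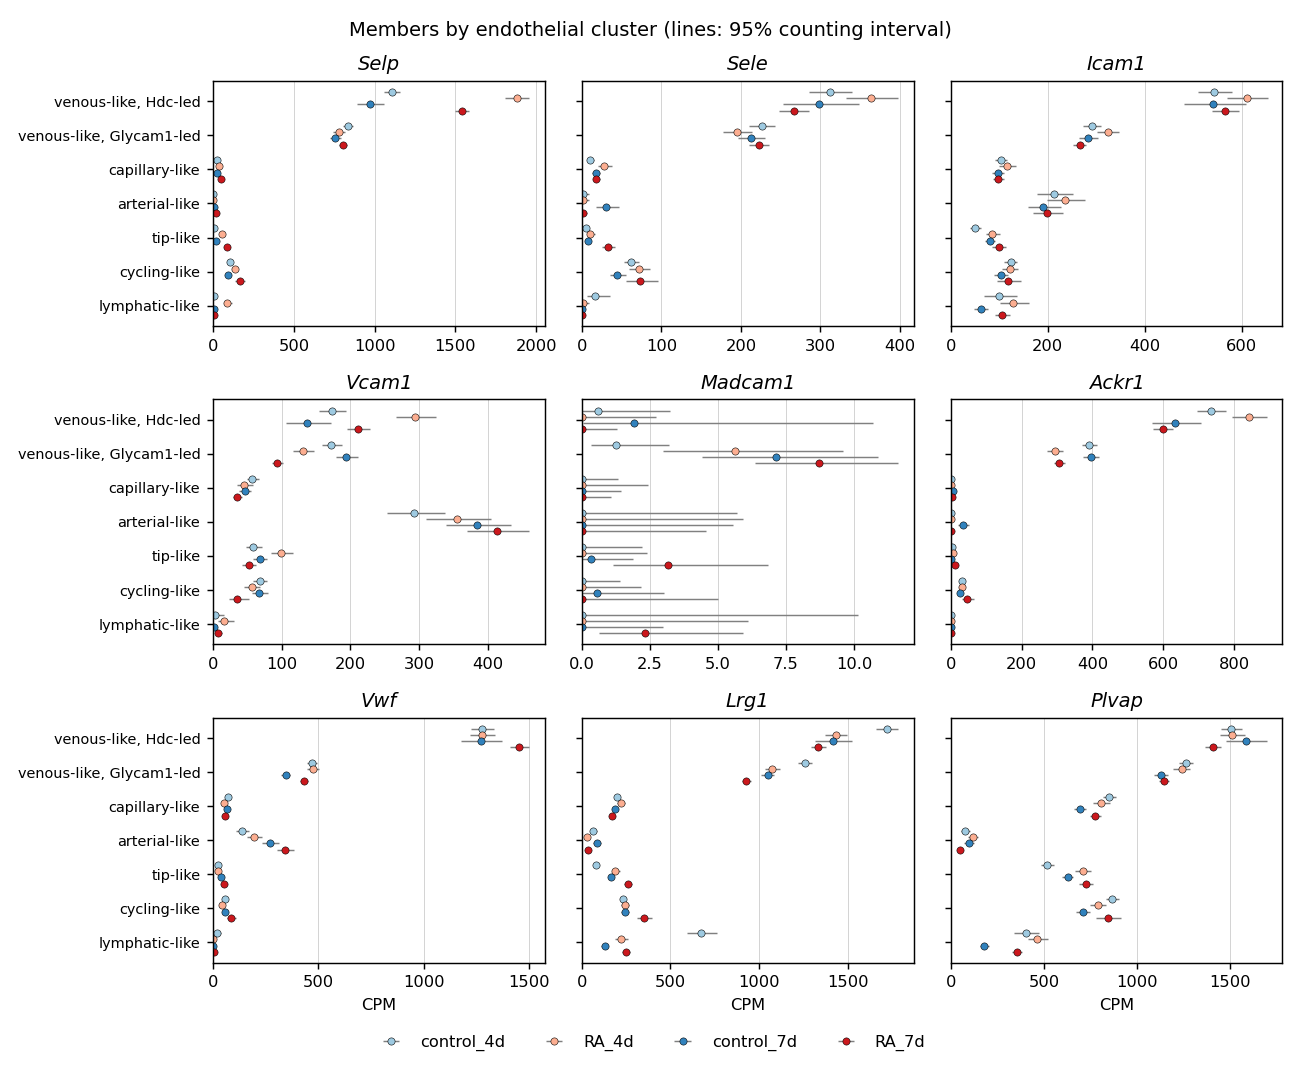
Levels in CPM of each member in the endothelial clusters, with 1 point per library that holds at least 20 cells of the cluster. A venous-like cluster carries the highest pooled level of every member but *Vcam1*, whose highest points, 293 to 413 CPM, are arterial-like. For *Madcam1* this is the *Glycam1*-led cluster alone, and the *Hdc*-led one held 0.311 CPM.

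The share of each member's endothelial UMIs that came from both venous-like clusters followed this pattern. For *Selp* it was 91.4, 90.9, 83.5 and 88.7% in control_4d, RA_4d, control_7d and RA_7d, and for *Ackr1* 94.9, 95.3, 87.5 and 90.6%. For *Plvap* it was 53.4, 54.8, 41.8 and 61.8%, and for *Vcam1* 55.0, 55.5, 40.3 and 51.7%. Mixed clusters held 15.8% of *Vcam1* UMIs in control_7d and 20.1% in RA_7d, more than of any other member.

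The comparison of RA with control asks whether arthritis went with another state of the callus vessels at each time. With 1 library a group there is no test, and a gene is counted as past the threshold when its ratio exceeds 1.5-fold and both libraries hold 50 or more UMIs in sum. Intervals are exact 95% intervals of a ratio of counts and cover counting error only. The log2 ratios carry a pseudocount of 1 CPM, and the threshold was applied to them. In such sums more cells of a kind and more RNA per cell cannot be told apart. The clusters described further on come from the expression of the same cells, so they do not fully separate these either.

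At 4 dpf none of the 8 members tested was past 1.5-fold higher in RA_4d, beside 2.91% of 12397 genes, or lower, beside 2.08%. *Selp* differed most, at 481 CPM in RA_4d against 369.9 CPM in control_4d, a ratio of 1.30 (1.25 to 1.35). *Icam1* had a ratio of 1.14 (1.08 to 1.20) and *Vcam1* of 1.11 (1.03 to 1.20). For *Sele* (1.03, 0.948 to 1.11), *Vwf* (1.01, 0.962 to 1.06), *Ackr1* (0.980, 0.923 to 1.04) and *Plvap* (0.984, 0.957 to 1.01) the interval included 1. *Lrg1* was lower in RA_4d, with a ratio of 0.886 (0.857 to 0.917). *Madcam1*, with 18 UMIs over both libraries, was under the minimum.

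At 7 dpf 6 of the 9 members were past 1.5-fold higher in RA_7d, beside 4.43% of 13529 genes, and none was lower, beside 3.8%. The median log2 ratio was 0.60 over the members and 0.01 over all genes tested. *Vwf* differed most, at 403 CPM in RA_7d against 167 CPM in control_7d, a ratio of 2.41 (2.30 to 2.52). *Selp* followed, at 508 against 226 CPM, a ratio of 2.24 (2.15 to 2.33). These are the constituents of the same storage granule.

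The other members past the threshold at 7 dpf were closer to it. The ratio was 1.62 (1.505 to 1.75) for *Sele*, 1.62 (1.53 to 1.72) for *Ackr1* and 1.52 (1.45 to 1.61) for *Icam1*, whose interval includes 1.5. *Madcam1* had a ratio of 1.80 (1.10 to 3.04) on 24 and 57 UMIs, found in 10 and 15 cells. With the pseudocount its log2 ratio was 0.586, barely past the threshold of 0.585, and with a pseudocount of 10 CPM it was 0.156. Just below the threshold lay *Lrg1*, at 1.46 (1.41 to 1.51), then *Plvap* at 1.24 (1.21 to 1.27). *Vcam1* was level, at 110.3 CPM in control_7d and 111 CPM in RA_7d, a ratio of 1.00 (0.939 to 1.07). Marker sums moved with this contrast, the mesenchymal one from 3102 to 4005 CPM, the erythroid one from 439 to 860 CPM, with all 4 haemoglobin genes past 1.5-fold, and the capillary one from 6394 to 8866 CPM. Their part was not tested, except that leaving out both mixed clusters again placed 6 members past the threshold. Without cells holding at least 1 UMI each of the proliferation genes *Mki67* and *Top2a*, only 2 members, *Selp* at a log2 ratio of 1.01 and *Vwf* at 1.14, stayed past it.

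**Figure D3:**
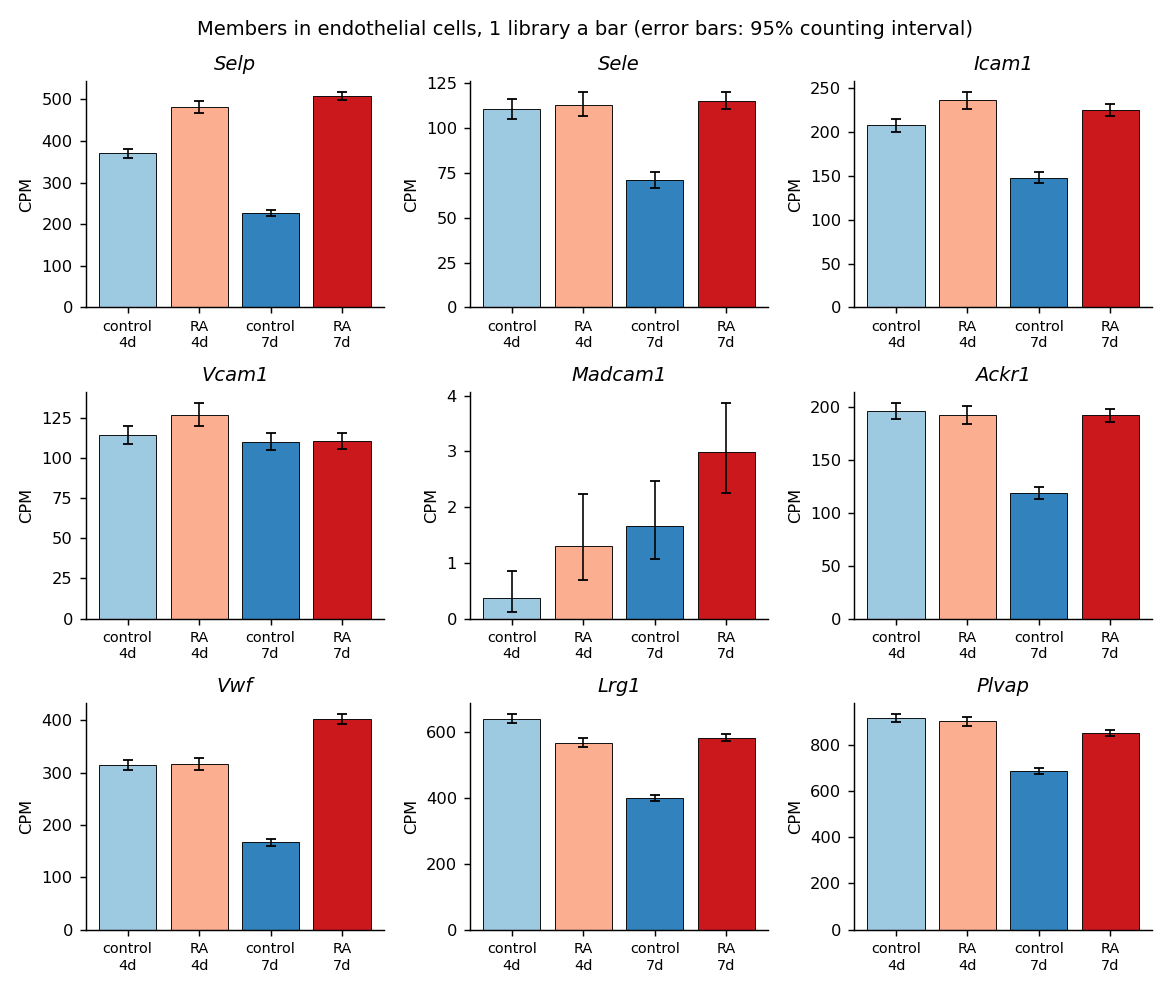
Level of each member in endothelial cells in CPM, 1 bar per library with the exact 95% counting interval, axes starting at 0. Control_7d is the lowest bar in every panel but *Madcam1*, with *Selp* at 226 and *Vwf* at 167 CPM, and the *Vcam1* bars lie close together, between 110.3 and 127 CPM.

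The comparison of times sets the 7 dpf levels beside those at 4 dpf. From control_4d to control_7d, 5 of 8 members tested were past 1.5-fold lower, beside 1.55% of 12917 genes, and none was higher, beside 6.43%. The ratio of control_7d to control_4d was 0.532 (0.506 to 0.559) for *Vwf*, 0.603 (0.567 to 0.641) for *Ackr1*, 0.612 (0.586 to 0.640) for *Selp*, 0.624 (0.603 to 0.645) for *Lrg1* and 0.644 (0.595 to 0.698) for *Sele*. *Icam1*, at 0.711, and *Plvap*, at 0.748, were also lower, and *Vcam1* was at 0.967 (0.901 to 1.04). With a looser cell filter only *Vwf* was past the threshold, at a log2 ratio of -0.67, and without cells holding a UMI of *Prox1*, a lymphatic transcription factor, only *Vwf*, at -0.78, and *Ackr1*, at -0.63.

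From RA_4d to RA_7d only *Madcam1* was past the threshold, on 13 and 57 UMIs, beside 7.01% of 13145 genes higher, and none was lower, beside 2.66%. *Selp* had a ratio of 1.06 (1.02 to 1.09), *Sele* 1.02 (0.948 to 1.10), *Ackr1* 0.999 (0.945 to 1.06) and *Lrg1* 1.03 (0.994 to 1.06). *Vwf* was somewhat higher at 7 dpf, at 1.27 (1.22 to 1.33), and *Vcam1* lower, at 0.870 (0.811 to 0.934). RA_7d thus stood near the levels of both 4 dpf libraries for *Sele*, *Ackr1*, *Icam1* and *Lrg1*, and control_7d stood below them. The 4 comparisons share libraries and are not independent of each other.

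The makeup of the endothelium differed between the libraries as well. In clusters built without the 2478 genes past 1.5-fold in any comparison, venous-like cells were 38.4% of endothelial cells in control_4d, 44.6% in RA_4d, 25.1% in control_7d and 44.8% in RA_7d. The share in RA_7d was 1.79 times that in control_7d (1.53 to 2.10). All 9 members, *Vcam1* included, were highest in a venous-like cluster of that coarser partition of 7 clusters. With the 9 clusters above, whose marker genes include some that differ between libraries, the shares were 43.0, 43.9, 28.4 and 48.0%, a ratio of 1.69 (1.46 to 1.97) at 7 dpf. The *Hdc*-led cluster was 5.38% of endothelial cells in control_7d, against 16.4 to 19.2% in the other libraries. Intervals treat cells as independent and do not cover differences between pools.

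When every cluster was given the same weight in each library, the 7 dpf ratios of most members were close to 1. Clusters are defined by expression, so this does not separate a changed makeup from a changed state of the same cells. None of the 9 was then past the threshold with the 9 clusters. The log2 ratio went from 1.16 to 0.42 for *Selp*, from 1.26 to 0.27 for *Vwf*, from 0.69 to 0.02 for *Sele* and from 0.60 to 0.07 for *Icam1*. It went from 0.69 to -0.19 for *Ackr1*, from 0.54 to -0.03 for *Lrg1* and from 0.0044 to -0.23 for *Vcam1*. With the clusters built without the differing genes, *Vwf* alone was past the threshold, at 0.62, with *Selp* at 0.45 and *Ackr1* at -0.078. The 5 members past the threshold between the control libraries were likewise within 1.5-fold under the same weights, at log2 ratios of -0.14 for *Selp*, -0.12 for *Vwf*, -0.05 for *Sele*, -0.07 for *Ackr1* and -0.29 for *Lrg1*.

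Within both venous-like clusters summed, 1 member was past 1.5-fold higher in RA_7d than in control_7d, beside 4.15% of 10577 genes, and none was lower, beside 2.84%. This was *Vwf*, at 786 against 483 CPM, a ratio of 1.63 (1.54 to 1.72). The makeup of this sum also differed. The *Hdc*-led cluster, which held more *Vwf* and *Selp*, gave 49 of its 258 cells in control_7d and 238 of 596 in RA_7d. *Selp* was at 1059.7 against 789.7 CPM, a ratio of 1.34 (1.29 to 1.40), and *Vcam1* at 135 against 186 CPM, a ratio of 0.725 (0.657 to 0.801). The other 6 had ratios between 0.895 and 1.15. At 4 dpf *Selp* had a similar ratio in the same cells, at 1184 against 930.5 CPM, or 1.27 (1.22 to 1.33).

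The venous-like clusters differed in which members separated RA from control. In the *Hdc*-led cluster *Selp* was at 1539.6 CPM in RA_7d against 972 CPM in control_7d (ratio 1.58, 1.44 to 1.74), and *Vcam1* at 211 against 136 CPM (1.55, 1.21 to 2.01). They were the 2 members past the threshold there, beside 8.25% of 7179 genes, and the control side rests on 49 cells. At 4 dpf the same pair was past the threshold in this cluster, beside 3.18% of 6785 genes, with *Selp* at 1880.4 against 1105 CPM (1.70, 1.60 to 1.81) and *Vcam1* at 294 against 173 CPM (1.69, 1.45 to 1.98). *Vwf* was level there at 4 dpf, with a ratio of 1.00 (0.939 to 1.07), and 1.14 (1.05 to 1.24) at 7 dpf.

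In the *Glycam1*-led cluster *Selp* differed little, with ratios of 0.929 (0.875 to 0.986) at 4 dpf and 1.06 (1.01 to 1.12) at 7 dpf. *Vcam1* was lower in RA there, at 131 against 172 CPM at 4 dpf (0.762, 0.660 to 0.878) and at 93.8 against 194 CPM at 7 dpf (0.483, 0.428 to 0.546). At 7 dpf *Vcam1* was the 1 member past the threshold downwards in that cluster, beside 2.54% of 9749 genes. While the *Vcam1* ratio of the whole endothelium was level at 7 dpf, the 2 venous-like clusters had opposite ratios, a difference that was not tested. These clusters held 40.3% of endothelial *Vcam1* UMIs in control_7d and 51.7% in RA_7d, so other clusters also enter the level ratio. *Ackr1* was also lower in RA in the *Glycam1*-led cluster, at 0.750 (0.682 to 0.824) and 0.776 (0.719 to 0.837).

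Outside the venous-like and mixed clusters *Selp* was low, yet higher in RA at both times. It was at 72.8 against 45.4 CPM at 4 dpf (1.60, 1.39 to 1.85) and at 56.8 against 32.2 CPM at 7 dpf (1.76, 1.52 to 2.04), and was in both cases the 1 member past the threshold, beside 5.25% of 11130 and 3.93% of 11898 genes. In capillary-like cells, the largest of these clusters, *Selp* was at 39.0 against 27.8 CPM at 4 dpf (1.40, 0.982 to 1.99), within the threshold, and at 50.7 against 25.1 CPM at 7 dpf (2.02, 1.51 to 2.73). Cycling-like cells held the highest *Selp* level of these clusters, at 104, 137, 90.0 and 165 CPM, and 278 of its UMIs in control_4d and 167 in control_7d. Such levels are a small part of those in venous-like cells, and the part of ambient RNA in them was not tested.

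**Figure D4:**
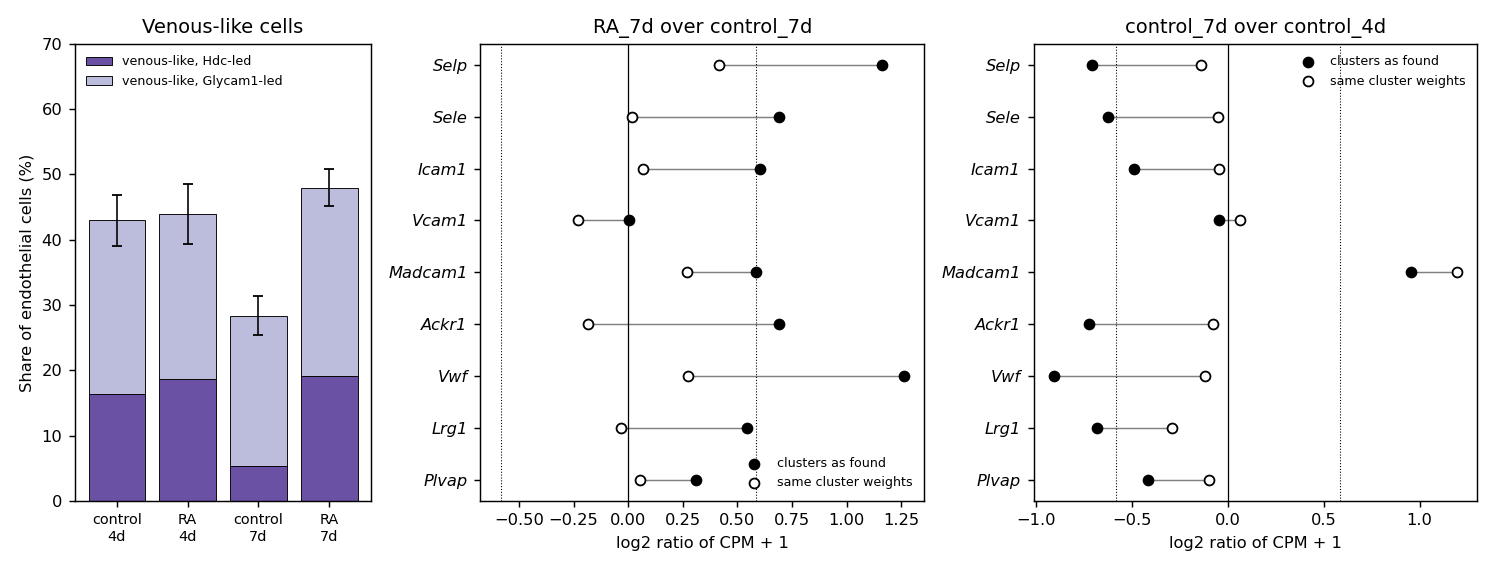
Venous-like share of endothelial cells per library in percent with exact 95% intervals, and log2 ratios of the members. The ratios are RA_7d over control_7d and control_7d over control_4d, each with clusters as found and with clusters given the same weights. Control_7d has the lowest share, 28.4%, and at 7 dpf the *Selp* ratio of 1.16 becomes 0.42 when weights are the same.

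The share of endothelial cells with at least 1 UMI, after thinning each cell to 4000 UMIs, was lowest in control_7d for every member but *Madcam1*. *Selp* was detected in 41.7% (37.8 to 45.7%) of cells in control_4d, 47.4% (42.8 to 52.1%) in RA_4d, 29.2% (26.3 to 32.3%) in control_7d and 48.1% (45.3 to 50.97%) in RA_7d. Without thinning the shares were 52.0, 59.1, 37.9 and 58.8%. In muscle cells, which lack P-selectin, the thinned share was 0% in 3 libraries and 0.758% in RA_7d, at median depths of 23234, 18231.5, 13002 and 9422.5 UMIs.

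*Sele* was detected in 24.6, 22.9, 14.6 and 23.0% of thinned endothelial cells, *Ackr1* in 30.6, 33.1, 19.1 and 33.5%, and *Vwf* in 46.3, 45.9, 32.4 and 50.5%. Shares of *Lrg1* were 61.1, 64.9, 49.6 and 65.0%, and of *Plvap* 85.6, 86.8, 76.4 and 82.9%, against at most 2.52% for *Plvap* in muscle cells. *Icam1* was detected in 45.3, 50.2, 37.7 and 47.9% and *Vcam1* in 21.2, 26.2, 21.1 and 21.7%, with 0.495 to 3.74% of dendritic cells holding *Vcam1*. *Madcam1* was detected in 0 of 633 thinned cells of control_4d and in at most 0.879% elsewhere. At 7 dpf, where median depths were alike, cells with a *Selp* UMI before thinning held a mean of 9.51 UMIs in control_7d and 13.3 in RA_7d.

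Members were often found in the same cells. Among cells with a *Selp* UMI after thinning, *Ackr1* was also detected in 65.9, 61.6, 56.4 and 60.9%, against 5.42, 7.41, 3.73 and 8.07% of cells without one. *Sele* was detected in 48.5, 42.5, 39.1 and 43.5% of *Selp*-positive and in 4.04 to 7.59% of *Selp*-negative cells. *Vcam1* was less closely tied to *Selp*, at 31.4, 35.2, 32.0 and 32.6% against 11.6 to 18.1%. Of the 4 classical adhesion genes *Selp*, *Sele*, *Icam1* and *Vcam1*, 3 or 4 were detected together in 19.6, 23.8, 12.9 and 22.0% of endothelial cells, and none in 35.5, 31.0, 42.5 and 30.1%. These shares are given as a description.

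In other cell types *Vcam1* and *Icam1* were compared between RA and control in the same way. *Vcam1* in muscle cells was past 1.5-fold higher in RA at both times, with ratios of 1.60 (1.43 to 1.79) at 4 dpf and 1.71 (1.56 to 1.88) at 7 dpf, beside 8.89% of 8542 and 11.4% of 9126 genes. In macrophage-lineage cells *Vcam1* was at 29.2, 43.4, 48.0 and 71.4 CPM, with ratios of 1.49 (1.36 to 1.63) and 1.49 (1.37 to 1.62). *Icam1* did not separate the macrophage libraries, at 0.987 (0.932 to 1.04) and 1.06 (0.990 to 1.14). In mesenchymal cells *Icam1* was at 45.7, 55.0, 25.3 and 47.3 CPM, and its 7 dpf ratio of 1.87 (1.75 to 1.99) was past the threshold, beside 4.95% of 15802 genes. Control_7d was thus the lowest *Icam1* library in mesenchymal as in endothelial cells. Other members also differed between the 7 dpf libraries outside the endothelium. In mesenchymal cells *Ackr1* was at 1.90 CPM in control_7d and 5.55 CPM in RA_7d, a ratio of 2.93 (2.33 to 3.70). *Plvap* was at 3.60 and 8.48 CPM there, a ratio of 2.36 (1.99 to 2.80). At 4 dpf both were lower in RA in mesenchymal cells, with ratios of 0.256 for *Ackr1* and 0.565 for *Plvap*. In macrophage-lineage cells *Selp* was at 1.25 CPM in control_7d and 20.4 CPM in RA_7d. *Plvap* was at 7.64 and 31.1 CPM there, and *Vwf* at 6.17 and 19.4 CPM. At 4 dpf *Selp* was lower in RA in these cells, with a ratio of 0.466. In T and NK cells *Plvap* was lower in RA_7d, with a ratio of 0.486. The part of ambient RNA or of joined cells was not tested.

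Related gene groups were read from lists chosen for their role. Of 16 other leukocyte adhesion and junction genes, 0 were past 1.5-fold at 4 dpf, beside 2.91% of all genes higher and 2.08% lower. At 7 dpf only *Jam2*, a junction molecule that binds alpha-4 beta-1 integrin, was higher in RA_7d, at 208 against 125 CPM, beside 4.43% of all genes. The list's median log2 ratio at 7 dpf was 0.08, close to the 0.01 of all genes. *Icam2*, a constitutive ligand of beta-2 integrins, was at 206, 177, 181 and 148 CPM.

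Of 8 selectin-ligand and high endothelial venule genes tested, *Ccl21a*, a homing chemokine of lymphatic vessels, was past the threshold upwards at both times, at 265, 465, 579 and 947 CPM. Over all genes 2.91% were past it upwards at 4 dpf and 4.43% at 7 dpf. *Ccl21a* leads the lymphatic-like cluster, and the lymphatic marker sum moved the same way, at 473, 821, 959 and 1520 CPM. *Glycam1* was lower in RA_4d, at 12.5 against 42.5 CPM, and close at 7 dpf, at 31.6 in control_7d and 30.4 CPM in RA_7d.

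Of 13 chemokines and cytokines tested at 7 dpf, 4 were past the threshold higher in RA_7d, beside 4.43% of all genes, and 4 lower, beside 3.8%. Higher were *Il33*, an alarmin of venular nuclei, with log2 ratios of 0.96 at 4 dpf and 1.57 at 7 dpf, and *Csf3* (0.94), *Il6* (0.74) and *Ccl7* (0.69), which act on granulocytes, the acute phase and monocytes. *Il33* was at 4.79, 10.3, 2.76 and 10.2 CPM. Lower were the interferon-induced T cell attractants *Cxcl9* (-1.43) and *Cxcl10* (-1.20), the neutrophil attractant *Cxcl2* (-1.06) and the monocyte attractant *Ccl2* (-0.71). *Ccl2* had the other direction at 4 dpf, at 117 CPM in RA_4d against 59.6 CPM in control_4d. *Cxcl12*, a retention signal for CXCR4-bearing cells, was lower in RA_4d, at 184 against 324 CPM, and at 294 and 262 CPM in control_7d and RA_7d.

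Of 21 NF-kB and STAT3 response genes, 3 were past the threshold at 7 dpf, all higher in RA_7d, beside 4.43% of all genes. The list's median log2 ratio was 0.25. They were *Il6st*, the shared receptor chain of the IL-6 family, at 428, 436, 306 and 598 CPM, *Cebpd*, an acute-phase transcription factor, at 105, 151, 94.1 and 158 CPM, and *Il1r1*, the interleukin-1 receptor, at 167, 210.5, 115 and 186 CPM. *Il1r1* is also one of the venous markers, of which 5 of 8 were higher in RA_7d, beside 4.43% of all genes. *Nfkbia*, the feedback inhibitor of NF-kB, was at 1081, 916, 923 and 879 CPM and within 1.5-fold at both times. At 4 dpf 1 gene of the list was past the threshold, *Tnfaip3*, another feedback inhibitor, which was lower in RA_4d at 26.5 against 40.5 CPM. Over all genes 2.08% were past it downwards at that time.

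Weibel-Palade body and coagulation genes were examined beside *Selp* and *Vwf*, since these share the granule. Of 14 tested, 2 were past the threshold higher in RA_7d, beside 4.43% of all genes, and 1 was lower, beside 3.8%. *Rab27a*, a GTPase of secretory granules, was at 23.6, 29.3, 15.5 and 34.8 CPM, the order of libraries also seen for *Selp*. *Mmrn1*, a multimerin of endothelial and platelet granules and a lymphatic marker, was higher in RA at both times, at 50.1, 81.3, 80.3 and 134 CPM. At 4 dpf *F8*, coagulation factor VIII, was at 28.5 CPM in RA_4d against 12.3 CPM in control_4d.

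Of 10 barrier and caveolae genes tested, *Aqp1*, a water channel, and *Cavin2*, a coat protein of caveolae, were higher in RA_7d, at 1226 against 387 CPM and at 474 against 302 CPM. Over all genes 4.43% were past the threshold upwards. The list's median log2 ratio was -0.04. Outside these lists, 6 of 8 tip cell markers and 8 of 8 cycling markers were lower in RA_7d, beside 3.8% of all genes. *Esm1*, a tip cell proteoglycan, was lower in RA at both times, at 48.8, 12.5, 37.1 and 7.50 CPM. None of the 10 dissociation response genes was past the threshold at either time.

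The ligands and integrins that bind the members were read in the leukocyte gates as ranges over the 4 libraries. *Selplg*, the P-selectin ligand PSGL-1, was at 163 to 217 CPM in dendritic cells, 137 to 196 CPM in T and NK cells, 104 to 114 CPM in macrophage-lineage cells and 60.1 to 99.0 CPM in neutrophils, against 8.64 to 13.2 CPM in endothelial cells. Of the integrin chains that bind ICAM-1, *Itgam* was at 391 to 636 CPM in neutrophils, above the 208 to 281 CPM of macrophage-lineage cells. *Itgb2*, at 179 to 368 CPM in neutrophils and 213 to 244 CPM in macrophage-lineage cells, overlapped between them, and *Itgal* was at 136 to 154 CPM in T and NK cells. *Itga4*, the chain that binds VCAM-1, was at 177 to 266 CPM in T and NK cells and 115 to 188 CPM in dendritic cells. *Itgb7*, its partner for MAdCAM-1, was at 111 to 177 CPM in dendritic cells and 53.9 to 118 CPM in T and NK cells. *Cd44*, a ligand of E-selectin on leukocytes, was at 705 to 745 CPM in macrophage-lineage cells.

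Genes with patterns like those of the members were sought over 31 cluster-by-library sums, among 6213 genes, by Pearson correlation of log2(CPM + 10). The sums share libraries and clusters, so the values describe and carry no p. *Selp* was most like *Il1r1* (r = 0.95), *Ptgs1* (0.94) and *Ackr1* (0.94), and *Sele* like *Plekha7* (0.95), *Itga2b* (0.95) and *Il1r1* (0.94). *Ackr1* was most like *Cadm3* (0.98), its overlapping neighbour, followed by *Ret* and *Mctp1*. *Vwf* was most like *Lifr* (0.96), *AU021092* and *Pdzd2*, *Lrg1* like *Tll1* (0.93), *Pip4k2a* and *Slco2b1*, and *Plvap* like *Emcn* (0.91), *Abcg1* and *Cdr2l*.

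*Icam1* was most like *Kank1* (0.93), *Spint2* and *Casp4*, and *Vcam1* like *Iqgap1* (0.90), *Uap1* and *Ace* (0.88), the last known from arterial endothelium. *Madcam1* was below 50 CPM in every sum and was not compared. Among the members, *Selp* correlated with *Sele* at 0.93 and with *Lrg1* at 0.86, while *Vcam1* correlated with *Selp* at 0.36, with *Lrg1* at 0.02 and with *Plvap* at -0.13. *Vcam1* was closest to *Vwf*, at 0.80, both of which were also present in arterial-like cells.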

How the data were processed

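Per the labels, the authors made Chromium 3' v3.1 libraries and aligned them with Cell Ranger 7.0.1 to mm10; the deposited matrices hold raw UMI counts per gene and barcode. Cells with 4000 to 50000 UMIs, 2000 to 7000 genes and at most 8% mitochondrial UMIs were kept, as in the study's methods. The members and gene lists were chosen with earlier results of these data known. Other cell types were gated on raw UMIs of marker genes, leaving out cells that met several gates. UMIs were summed per library and gate or cluster and divided by the sum of all genes. Clusters came from 2000 variable genes, 20 components, 15 neighbours and Leiden at resolution 0.5 (scanpy 1.11.5). Doublets were called with Scrublet and kept, except as an alternative. The edgeR (4.0.16) quasi-likelihood fit, with TMM scaling, was blocked by library and tested on simulated data, with DESeq2 (1.42.0) as an alternative. Shares have exact Clopper-Pearson 95% intervals.

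Named genes were the members, list genes past 1.5-fold in the same direction at both times, the 3 genes most like each member, and counter-receptors; other list genes were named after their values were seen. Alternatives were gates, filters, doublets, scaling, pseudocount, cell weights, left-out or reweighted clusters, thinning, UMI minimum, resolution and left-out libraries. Leaving out mixed clusters, and clustering without differing genes, were chosen after seeing the data. Promoters were RefSeq's (GRCm38.p6). Values of some list genes are not reported here.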

Additional observations from a re-analysis of the deposited data

Results flagged for a closer look

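With time *Selp* was lower in control and about level in RA, and *Vwf* was lower in control and higher in RA. For *Selp* the log2 ratio of 7 over 4 dpf was -0.71 in control and 0.0781 in RA, and for *Vwf* it was -0.91 in control and 0.35 in RA. *Lrg1* was lower in RA_4d than in control_4d, by a log2 ratio of -0.17, and higher in RA_7d than in control_7d, by 0.54. With 1 library a group, these differences were not tested. The *Selp* value in RA is close to 0 and ranged from -0.091 to 0.299 over the processing alternatives.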

How the results depend on the processing

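Of 504 recomputed member ratios between libraries, 354 stayed within their counting interval, 147 moved, and 3 past 1.5-fold changed sign: *Ackr1* at 7 dpf, to -0.19 with clusters given the same weights and -0.078 with clusters built without differing genes, and *Madcam1*, to -0.13 after thinning. The minimum of 10 UMIs alters only which genes count as tested, so the ratios recomputed under it could not move. Ratios not past 1.5-fold could change sign among those that moved, such as *Lrg1* (-0.03) and *Vcam1* (-0.23) at 7 dpf with the same cluster weights. At 7 dpf the count of members past 1.5-fold higher stayed at 6 without doublets, with TMM scaling, with a minimum of 10 UMIs and without mixed clusters. It was 5 with the stricter gate, the looser gate and the looser cell filter. It was 4 with a pseudocount of 10 CPM, with cells weighted equally, after thinning and without *Prox1*-positive cells. It was 2 without cells positive for *Mki67* and *Top2a*, 0 with the same cluster weights and 1 with clusters built without differing genes. At 4 dpf it was 1 with a minimum of 10 UMIs. Between control libraries the count lower was 1 with the looser cell filter, 2 without *Prox1*-positive cells and 0 with either set of same-weight clusters. It was 4 with a pseudocount of 10 CPM and without cells positive for *Mki67* and *Top2a*. The count higher between control libraries was 1 with a minimum of 10 UMIs. Between RA libraries the count higher was 0 with a pseudocount of 10 CPM. The causes were not tested. Of 240 differences between cell types 237 kept their side and 3 were lost, all *Vcam1* against mesenchymal cells, where the count lower was 0 to 1 without 1 library and the edgeR adjusted p ranged from 0.0219 to 0.111 over 10 alternatives. At resolutions of 0.3 and 1 the 7 dpf ratio of venous-like shares was 1.68 and 1.94, with 8 and 7 members highest in a venous-like cluster. No paired analysis of RA and control was possible because each condition has 1 library. At this depth *Madcam1* rests on under 60 UMIs in any library.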
